A study of Mus musculus with 17 samples.

Results

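CLP, the common lymphoid progenitor, and preCFUE, an erythroid progenitor that precedes the erythroid colony-forming cell, are the 2 sorted bone marrow fractions with the least similar expression among the 5 profiled in this series, and they are compared here gene by gene. Both came from the bone marrow of mice 10 to 14 weeks old, sorted directly into lysis buffer, with 3 Affymetrix arrays each of the 17 in the series. The CLP gate was lineage-negative, Sca1 low, Kit low, IL7r-positive and Flk2-positive, where Flk2 is the Flt3 receptor. The preCFUE gate was lineage-negative, Sca1-negative, Kit-positive, Itga2b-negative, FcgR low, Slamf1-positive and Eng high. The other fractions, used for the shared estimate of spread and for ranking levels, were preGM (the same gate as preCFUE but Slamf1-negative and Eng low, 3 arrays), preMegE (Slamf1-positive and Eng low, 5 arrays) and MkP (Itga2b-positive and Slamf1-positive, 3 arrays). Arrays were grouped by the gate in their title, because the free-text description gives one stem cell gate for every array of the series. No genotype, strain, sex or treatment is given, and the labels leave unsaid whether each replicate was its own sort. The p-values therefore measure how far these arrays spread, and that spread may be technical. The comparison covered 17404 autosomal genes, of 18193 genes with a symbol, each read from the probe set with the highest mean over the 17 arrays.

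Lymphoid progenitors depend on interleukin-7 and Flt3 ligand, carry the recombinase that assembles antigen receptor genes, and give rise to B cells and, after entering the thymus, T cells. Erythroid progenitors are driven by erythropoietin, which signals through its receptor, JAK2 and STAT5, and by the factors GATA1 and KLF1, which switch on genes for heme, iron uptake and the red cell membrane. Kit, the receptor of stem cell factor, serves both branches early on. Gata1 and Alas2 lie on the X chromosome and are outside the autosomal comparison.

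The arrays of the fractions were not equally alike. Pearson correlations over genes were 0.940 to 0.959 among the CLP arrays and 0.985 to 0.990 among the preCFUE arrays, and the mean between the fractions was 0.864, the lowest of the pairs of fractions and the reason for their choice. CLP replicate 2 stood apart: it correlated with the preGM arrays at 0.961 on average and with the other CLP arrays at 0.949. It also had the lowest ratio of the 3-prime to the 5-prime Gapdh control probe sets in its fraction, a measure of how much short, degraded or truncated cRNA was labelled. On the log2 scale that ratio was 5.12, 3.00 and 4.08 in the 3 CLP arrays and 2.85, 3.53 and 4.09 in the 3 preCFUE arrays. Of the 10555 autosomal genes whose mean level exceeded the 40th percentile, CLP replicate 2 was the highest CLP array for 51.8%. Counts without it are given beside those that it moved.

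Most of the difference ran towards lower levels in CLP. In the limma fit, 5084 of 17404 genes (29.2%) had an adjusted p under 0.05, called passing the test below. 1687 (9.69%) were higher in CLP and 3397 (19.5%) were lower, and these shares are the background for every list below. Without CLP replicate 2 the counts were 2361 higher and 4061 lower. The split moved with the scaling: quantile normalization gave 1994 higher and 2687 lower, and centring each array on its median gave 1253 higher and 3918 lower. Of the changes past the test, 761 genes (4.37%) were at least 2-fold higher in CLP and 2053 (11.8%) at least 2-fold lower, and 272 (1.56%) were at least 4-fold higher and 343 (1.97%) at least 4-fold lower. Arrays of the fractions did not overlap for 2851 genes higher in CLP (16.4%) and 3890 lower (22.4%), and 4769 genes (27.4%) both passed and did not overlap. Fold changes are on log2(intensity + 16), CLP over preCFUE, given ± SE, and understate the change of genes with low intensity. The median fold change of all genes on that scale was 0.015, and it was -0.24 for the genes above the 40th percentile. In bulk samples, fewer cells of a type and less RNA per cell cannot be told apart.

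**Figure D1:**
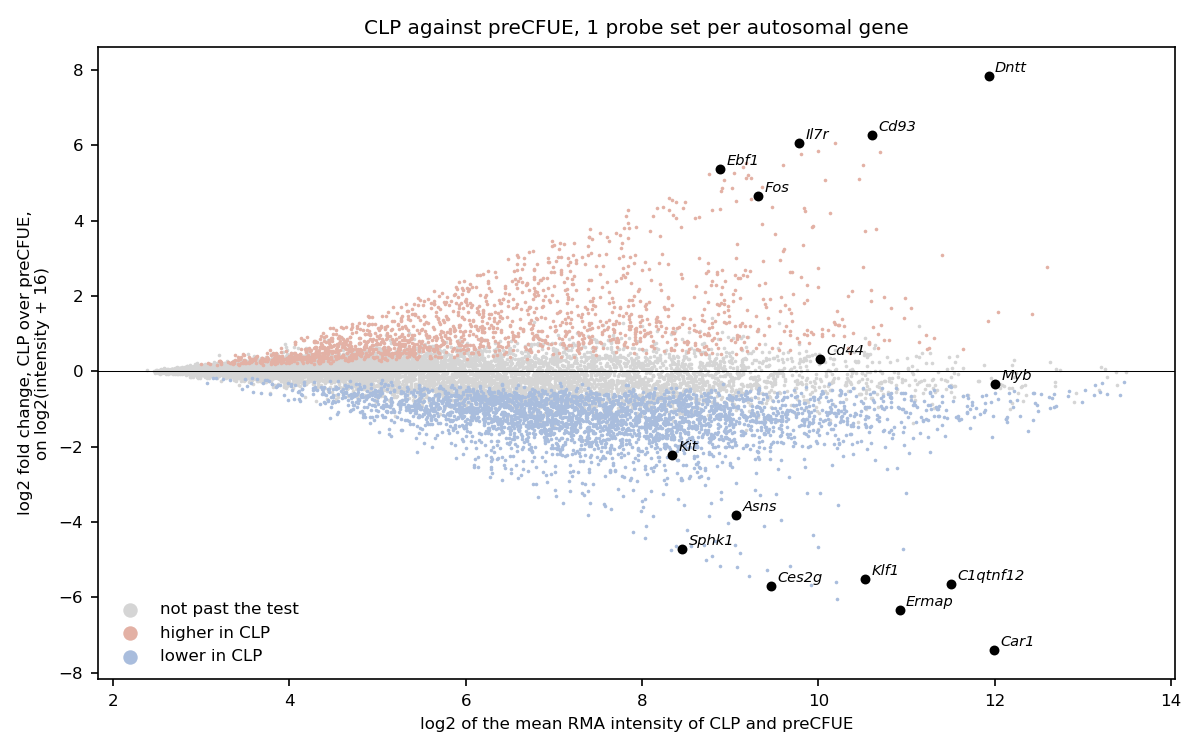
Log2 fold change, CLP over preCFUE, on log2(intensity + 16) against the log2 mean RMA intensity of both fractions, 1 point per autosomal gene. Red points passed the test and were higher in CLP, blue points passed and were lower, and grey points did not pass. Dntt at 7.84 and Car1 at -7.41 mark the ends of the range, while Myb and Cd44 lie near 0 at high intensity.

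**Figure D2:**
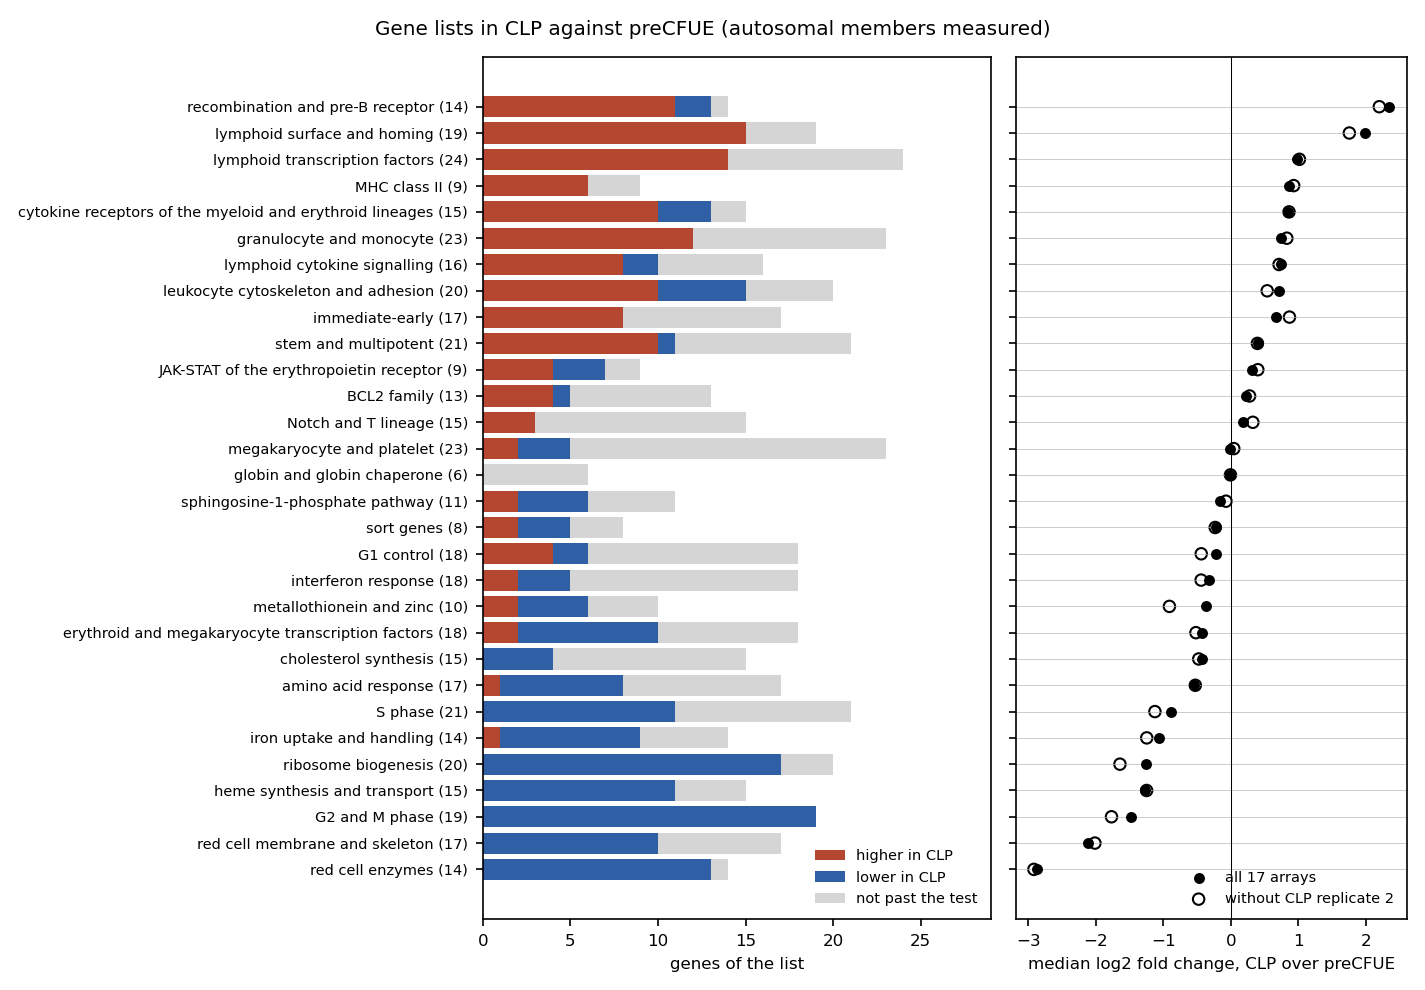
Gene lists by function, with the number of autosomal members measured in brackets. The lists and members were chosen with earlier results of these data known, so their medians are descriptions. The left panel counts members higher in CLP, lower in CLP or not past the test, and the right panel gives the median log2 fold change with all arrays (filled) and without CLP replicate 2 (open). The recombination list has the highest median, 2.35, and the red cell enzymes the lowest, -2.87.

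The genes of the gates' own surface proteins followed the sort for Il7r, Flt3 and Kit and much less for the others. Il7r, the alpha chain of the interleukin-7 receptor, had RMA intensities of 1296, 2367 and 1593 in the CLP arrays, against 9.51, 9.76 and 10.4 in the preCFUE arrays. Flt3 read 2304, 2389 and 1662 in the CLP arrays, against 51.2, 51.4 and 36.9 in the preCFUE arrays. Both were far above the preCFUE arrays in every CLP array, with log2 fold changes of 6.05 ± 0.33 (adjusted p = 6.65e-09) and 5.08 ± 0.18 (adjusted p = 7.78e-11). Kit fell, with 87.03, 173 and 71.1 in the CLP arrays, against 585, 503 and 533 in the preCFUE arrays and a log2 fold change of -2.22 ± 0.28 (adjusted p = 4e-05), and the arrays did not overlap. Slamf1 read 13.03, 10.4 and 12.7 in the CLP arrays, against 19.01, 19.7 and 22.6 in the preCFUE arrays, low in both fractions, at a log2 fold change of -0.38 ± 0.10 (adjusted p = 0.0137). Without preCFUE replicate 3 it missed the test (-0.34, adjusted p = 0.0577). Eng, the endoglin gene, read 141, 139 and 167 in the CLP arrays, against 200.4, 226 and 286 in the preCFUE arrays, a log2 fold change of -0.61 ± 0.15 (adjusted p = 0.00762). The other gate genes did not pass: Itga2b had a log2 fold change of -0.29 ± 0.18 (adjusted p = 0.24), Fcgr3 one of -0.13 ± 0.10 (adjusted p = 0.373) and Fcgr2b one of 0.26 ± 0.15 (adjusted p = 0.227). The preCFUE level of Slamf1, 20.4 ± 1.89, was below that of preMegE, 101 ± 13.2, although both gates were Slamf1-positive, and Eng averaged 237 ± 44.2 in preCFUE, gated Eng high, and 234 ± 16.2 in preMegE, gated Eng low (SD, n = 3 and 5). These differences between preCFUE and preMegE were not tested. The gates were set on the proteins of these genes, so their direction is not independent of the sort.

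The recombination and pre-B receptor genes were mostly higher: 11 of 14 measured members were higher in CLP, 2 were lower and 1 did not pass, with a median log2 fold change of 2.35 against 0.015 for all genes. Dntt, the terminal transferase that adds bases at recombination joints, had the largest rise of all autosomal genes past the test. Its intensities were 7463, 10275 and 5702 in the CLP arrays, against 12.6, 19.9 and 19.3 in the preCFUE arrays, and its log2 fold change was 7.84 ± 0.24 (adjusted p = 2.71e-11). Rag1, the recombinase subunit that cuts DNA, read 797, 1991 and 591 in the CLP arrays, against 6.87, 6.75 and 7.83 in the preCFUE arrays. CLP replicate 2 was the highest for Rag1, yet even the lowest CLP array was far above every preCFUE array, at a log2 fold change of 5.43 ± 0.28 (adjusted p = 4.2e-09). Its partner Rag2 rose by 2.47 on the log2 scale. The surrogate light chain genes Vpreb1 (4.16), Igll1 (2.36) and Vpreb3 (0.83) rose as well. Ighm, the mu heavy chain constant region, read 1873, 2012 and 3073 in the CLP arrays, against 15.5, 19.5 and 19.5 in the preCFUE arrays, with a log2 fold change of 6.06 ± 0.85 (adjusted p = 9.36e-05) and the largest SE of the list. That SE rests on the spread of all 17 arrays, and Ighm averaged 129 ± 254 in preMegE (SD, n = 5). In a fit of every probe set, 3 of the 11 for Ighm passed as higher and none as lower. Blnk, the B cell linker adaptor, rose by 4.35, Syk, its upstream kinase, by 2.34, and the signalling chains Cd79a and Cd79b by 1.45 and 1.79. The members that fell, Lig4 (-0.35 ± 0.12, adjusted p = 0.0383) and Hmgb2 (-1.44 ± 0.44, adjusted p = 0.0224), encode a DNA end-joining ligase and a chromatin protein found in dividing cells, and Xrcc4, the ligase's partner, was at 0.20 ± 0.17 (adjusted p = 0.436). Lig4 (adjusted p of 0.0906 to 0.156) and Hmgb2 (adjusted p of 0.0531 to 0.117) both missed the test without CLP replicate 1, CLP replicate 3, preCFUE replicate 1 or preCFUE replicate 3, which left none of the list lower.

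Of 24 lymphoid transcription factors, 14 were higher in CLP, none was lower and 10 did not pass, with a median of 0.98. There were 16 higher and 1 lower without CLP replicate 2. Ebf1, which specifies the B lineage, read 1147, 647 and 1030.4 in the CLP arrays, against 6.25, 7.38 and 6.27 in the preCFUE arrays, a log2 fold change of 5.36 ± 0.14 (adjusted p = 1.09e-11). Irf8, a factor of B cells, monocytes and dendritic cells, read 978, 1699 and 810.0 in the CLP arrays, against 14.5, 11.1 and 17.6 in the preCFUE arrays (5.21 ± 0.24, adjusted p = 1.46e-09). Neither overlapped between fractions. Sox4, needed by early B progenitors, rose by 3.35 ± 0.31 (adjusted p = 1.64e-06) and Mef2c, a lymphoid-primed factor, by 3.18 ± 0.22 (adjusted p = 7.39e-08). Foxo1, which drives Il7r and recombinase transcription in B progenitors, rose by 2.57, Ets1 by 2.89, Bach2 by 2.03 and Tcf4, an E protein, by 1.92. Pax5, which commits cells to the B lineage and acts after Ebf1, was low in both fractions: 25.4, 24.6 and 37.3 in the CLP arrays, against 14.7, 16.8 and 13.3 in the preCFUE arrays, a log2 fold change of 0.53 ± 0.12 (adjusted p = 0.00427). The founding E protein gene Tcf3 was at -0.69 ± 0.25 (adjusted p = 0.0577) and passed as lower without CLP replicate 2 (-0.95, adjusted p = 0.00769) and without preCFUE replicate 2 (-0.84, adjusted p = 0.0418). Ikzf1, the Ikaros gene and the brightest member that did not pass, was at 0.25 ± 0.15 (adjusted p = 0.25) and Bcl11a at -0.29 ± 0.20 (adjusted p = 0.326).

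Notch1, a receptor gene required for the T lineage, had by far the largest change in the Notch and T lineage list. It read 2998, 2935 and 2635 in the CLP arrays, against 56.9, 47.7 and 41.3 in the preCFUE arrays, with a log2 fold change of 5.48 ± 0.23 (adjusted p = 4.66e-10) and the smallest SD relative to its CLP mean among the 10 largest rises. Hes1, a Notch target, rose by 0.61 ± 0.16 (adjusted p = 0.01) but missed the test without preCFUE replicate 1 (0.48, adjusted p = 0.0585), and Lat, the T cell adaptor, rose by 0.76 ± 0.13 (adjusted p = 0.000375). The other 12 of 15 members did not pass, among them Gata3 (0.18), Bcl11b (0.29), Cd3e (0.27) and Ptcra (0.075). Notch2 was at 0.027 ± 0.19 (adjusted p = 0.935). In all, 3 of 15 were higher and none lower, beside 9.69% of all genes higher.

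Surface and homing genes of lymphoid cells were higher in CLP for 15 of 19 members, with none lower and a median of 1.99. Without preCFUE replicate 2, 1 was lower. Cd93, the AA4.1 antigen of early B progenitors, read 2721, 3043 and 3561 in the CLP arrays, against 26.3, 28.97 and 17.6 in the preCFUE arrays, a log2 fold change of 6.28 ± 0.17 (adjusted p = 1.51e-11). Cd53, a leukocyte tetraspanin, read 984, 1442 and 709 in the CLP arrays, against 10.2, 10.5 and 10.99 in the preCFUE arrays (5.26 ± 0.24, adjusted p = 9.36e-10). Their CLP and preCFUE arrays were far apart. Cd52 rose by 4.06 ± 0.20 (adjusted p = 1.94e-09) and Btla, an inhibitory receptor of lymphocytes, by 3.41 ± 0.31 (adjusted p = 1.33e-06). The chemokine receptors Ccr9 (3.20), which guides cells to the thymus and gut, and Cxcr4 (3.00), which retains cells in the marrow, rose, as did Ly6d (2.69), a mark of B-biased CLP, Cd27 (2.78) and Cd72 (2.43). Cd24a was at -0.45 ± 0.33 (adjusted p = 0.346).

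The leukocyte cytoskeleton and adhesion list changed both ways, with 10 of 20 members higher and 5 lower. Without CLP replicate 3, 3 were lower. Limd2, a LIM domain protein gene, read 3320.1, 3816 and 2701 in the CLP arrays, against 44.8, 26.8 and 58.6 in the preCFUE arrays (5.82 ± 0.23, adjusted p = 2.5e-10). Coro1a, an actin-binding protein of leukocytes, rose by 3.92 ± 0.27 (adjusted p = 6.15e-08), Lcp1, the actin bundler L-plastin, by 3.82 ± 0.20 (adjusted p = 5.43e-09), and Lsp1, an actin-binding protein of lymphocytes and neutrophils, by 3.58 ± 0.24 (adjusted p = 4.52e-08). Itgal, the alpha chain of the LFA-1 integrin, rose by 2.03, whereas the integrin chains Itgb1 (-1.21) and Itga6 (-1.50) fell, as did Lgals9 (-2.11), a galectin. Itgb1 missed the test without CLP replicate 1, CLP replicate 3 or preCFUE replicate 1 (adjusted p of 0.0691 to 0.105). Cd44, the hyaluronan receptor, was bright in both fractions at 0.33 ± 0.18 (adjusted p = 0.193). CLP replicate 2 was the highest CLP array for 16 of these 20 genes, and its part in the counts was not tested beyond leaving it out, which gave 10 higher and 6 lower.

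MHC class II genes were higher for 6 of 9 members, with none lower. H2-Ob, the beta chain of the peptide-exchange inhibitor H2-O, read 1673, 2549 and 1089 in the CLP arrays, against 14.5, 11.6 and 19.1 in the preCFUE arrays, a log2 fold change of 5.77 ± 0.30 (adjusted p = 3.79e-09). H2-Aa, a classical class II alpha chain, read 238, 331 and 189 in the CLP arrays, against 32.1, 27.04 and 35.1 in the preCFUE arrays (2.47 ± 0.27, adjusted p = 7.92e-06). H2-DMa, part of the peptide-exchange catalyst, rose by 1.79 ± 0.23 (adjusted p = 4.47e-05) and H2-Eb1 by 0.96 ± 0.15 (adjusted p = 0.000204). H2-Oa, the partner of H2-Ob, was at 0.12 ± 0.19 (adjusted p = 0.684) and turned sign without CLP replicate 2 (-0.0028, adjusted p = 0.993), and Ciita, the class II master regulator, was at 0.19, passing as higher without preCFUE replicate 2 (0.30, adjusted p = 0.0222). Ctss, a lysosomal protease that trims the class II invariant chain, was among the largest rises, at 5.48 ± 0.34 (adjusted p = 2.05e-08).

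**Figure D3:**
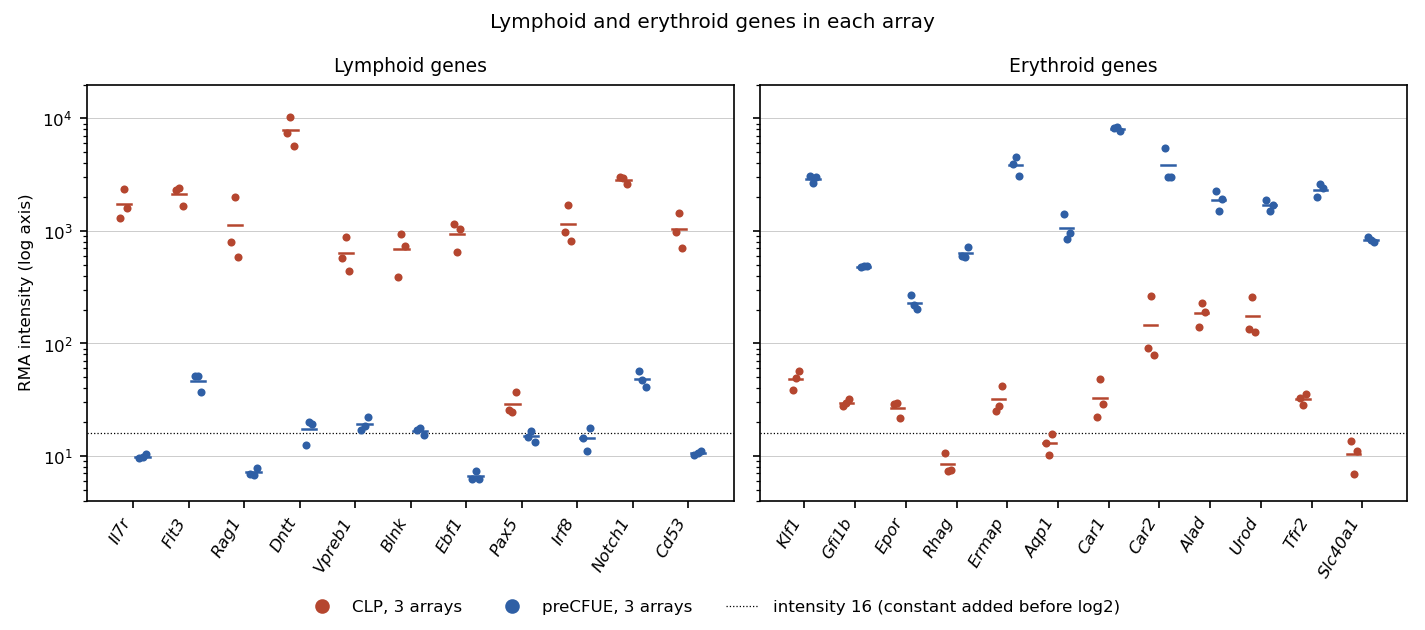
RMA intensity on a log axis in each of 3 CLP arrays (red) and 3 preCFUE arrays (blue), with a line at each mean and a dotted line at intensity 16. All lymphoid genes shown but Pax5 lie high in CLP and near or under the dotted line, or well below CLP, in preCFUE. The erythroid genes show the opposite order, with Rhag at 8.49 in CLP and 637 in preCFUE.

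Of 18 erythroid and megakaryocyte transcription factors, 8 were lower in CLP and 2 higher (2 higher and 9 lower without CLP replicate 2). Their median log2 fold change was -0.42, and it turned to 0.0373 with quantile normalization. Klf1, the erythroid Krüppel-like factor that activates red cell genes, read 38.9, 49.7 and 56.4 in the CLP arrays, against 3065, 2678 and 3009 in the preCFUE arrays, a log2 fold change of -5.52 ± 0.23 (adjusted p = 5.44e-10). Gfi1b, a repressor needed for erythroid and megakaryocyte maturation, read 27.9, 29.3 and 31.8 in the CLP arrays, against 474, 486 and 484 in the preCFUE arrays (-3.45 ± 0.20, adjusted p = 9.79e-09). Zfpm1, the GATA1 cofactor FOG1, read 38.2, 43.3 and 49.6 in the CLP arrays, against 489, 526 and 666 in the preCFUE arrays (-3.26 ± 0.23, adjusted p = 1.12e-07). In each the highest CLP array was below the lowest preCFUE array. Tal1 fell by 2.84 on the log2 scale, Gata2 by 2.27, Nfe2 by 1.94 and Lmo2 by 1.39. Tal1 and Lmo2 act in complexes with GATA factors, of which Gata2 encodes one, and Nfe2 encodes a subunit of the globin locus activator NF-E2. Lmo2 missed the test without CLP replicate 1, CLP replicate 3 or preCFUE replicate 1 (adjusted p of 0.0816 to 0.103). The higher members were Fli1 (1.63 ± 0.33, adjusted p = 0.00186), a megakaryocyte and lymphoid ETS factor, and Lyl1 (0.90 ± 0.15, adjusted p = 0.000423), a relative of Tal1. Myb, which both lineages use, was bright in both fractions, and its brightest probe set was at -0.34 ± 0.15 (adjusted p = 0.108). That probe set passed as lower without CLP replicate 2 (-0.45, adjusted p = 0.0448) and without preCFUE replicate 1 (-0.47, adjusted p = 0.0465). In a fit of every probe set, 2 of the 3 for Myb passed as lower.

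Red cell membrane genes were lower in CLP for 10 of 17 members, with none higher and a median of -2.12. Ermap, which carries the Scianna blood group, read 25.3, 27.9 and 42.1 in the CLP arrays, against 3905, 4563 and 3088 in the preCFUE arrays (-6.34 ± 0.37, adjusted p = 1.34e-08). Aqp1, the water channel of the Colton group, read 13.1, 10.2 and 15.6 in the CLP arrays, against 1406, 849.9 and 952 in the preCFUE arrays (-5.20 ± 0.27, adjusted p = 4.35e-09). Rhag, the Rh-associated glycoprotein, read 10.6, 7.32 and 7.53 in the CLP arrays, against 595, 591 and 724 in the preCFUE arrays (-4.73 ± 0.19, adjusted p = 2.89e-10). The arrays of the fractions did not overlap for these genes, and Aqp1 and Rhag were under 16 in every CLP array. Rhd fell by 3.40 and Kel, the Kell protein, by 3.31. Several genes of the mature membrane were low in both fractions and did not pass. Slc4a1, the band 3 anion exchanger, averaged 14.6 ± 2.82 in CLP and 10.3 ± 0.807 in preCFUE, and Sptb, beta-spectrin, 34.8 ± 5.55 in CLP and 34.7 ± 5.54 in preCFUE (SD, n = 3 each). Slc4a1 passed as higher without CLP replicate 2 (0.29, adjusted p = 0.0101), the one member so called. Ank1, the ankyrin that ties spectrin to band 3, fell by 2.58. Gypc, glycophorin C, was at -0.44 ± 0.23 (adjusted p = 0.169). None of the 6 globin genes with a value of their own passed, and 4 of them had means under 16 in both fractions. Hbb-bh1, an embryonic beta-like globin and the brightest, was at -0.038 ± 0.080 (adjusted p = 0.77). The beta-globin genes Hbb-b1, Hbb-bs and Hbb-bt, and Hbq1a and the globin chaperone Ahsp, had no value of their own and were not compared.

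Heme synthesis genes were lower for 11 of 15 members (0 higher and 12 lower without CLP replicate 2). Alad, which makes porphobilinogen, read 141, 228 and 192 in the CLP arrays, against 2257, 1509 and 1919 in the preCFUE arrays (-3.24 ± 0.27, adjusted p = 5.28e-07). Urod, the decarboxylase later in the pathway, read 134, 261 and 127 in the CLP arrays, against 1892, 1489 and 1713 in the preCFUE arrays (-3.24 ± 0.22, adjusted p = 8.07e-08). Fech, which inserts the iron, read 55.7, 109 and 55.2 in the CLP arrays, against 740.2, 525 and 608 in the preCFUE arrays (-2.88 ± 0.19, adjusted p = 4.96e-08). The arrays of the fractions did not overlap for these enzymes. Cpox fell by 1.90, Ppox by 1.15 and Uros by 0.79, and Tspo2, an erythroid membrane protein, by 2.63. Ppox (adjusted p of 0.0534 to 0.0968) missed the test without CLP replicate 1, preCFUE replicate 1 or preCFUE replicate 3, and Uros (adjusted p of 0.0704 to 0.108) without those or CLP replicate 3. The ubiquitous first enzyme Alas1 was at -0.65 ± 0.42 (adjusted p = 0.276), and passed as lower without CLP replicate 2 (-1.14, adjusted p = 0.0299). Slc25a39, a mitochondrial carrier, was at -0.50 ± 0.19 (adjusted p = 0.0667), and passed as lower without CLP replicate 1 (-0.70, adjusted p = 0.0146). Its probe sets did not move together: of 5 fitted, 1 passed as higher and 1 as lower.

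Iron genes were lower for 8 of 14 members and higher for 1, Hfe (0.59 ± 0.10, adjusted p = 0.000642), which binds the transferrin receptor. Quantile normalization made 3 of them higher, and there were 1 higher and 11 lower without CLP replicate 2. Tfr2, the second transferrin receptor, which associates with the erythropoietin receptor, read 33.1, 28.4 and 35.3 in the CLP arrays, against 1984, 2587 and 2424 in the preCFUE arrays (-5.60 ± 0.17, adjusted p = 1.79e-11). Slc40a1, the iron exporter ferroportin, read 13.5, 6.88 and 11.1 in the CLP arrays, against 874, 830.0 and 802 in the preCFUE arrays (-5.01 ± 0.18, adjusted p = 1.16e-10). Aco1, the iron-sensing RNA-binding protein IRP1, fell by 2.73 and Glrx5, an iron-sulphur cluster protein, by 2.06. The uptake receptor of most cells, Tfrc, was at -0.46 ± 0.29 (adjusted p = 0.274), and Fth1, ferritin heavy chain, at -0.38 ± 0.16 (adjusted p = 0.0959). Both passed as lower without CLP replicate 2, Tfrc at -0.84, adjusted p = 0.0168, and Fth1 at -0.55, adjusted p = 0.0143.

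The red cell enzymes were lower for 13 of 14 members, the lowest list median at -2.87 (0 higher and 14 lower without CLP replicate 2). Car1, carbonic anhydrase 1, had the largest fall of all autosomal genes past the test: 22.1, 47.9 and 29.1 in the CLP arrays, against 8137, 8463 and 7728 in the preCFUE arrays, a log2 fold change of -7.41 ± 0.33 (adjusted p = 7.35e-10). Its homologue Car2 read 91.7, 262 and 79.7 in the CLP arrays, against 5444, 3040.3 and 3040.2 in the preCFUE arrays (-4.71 ± 0.38, adjusted p = 3.95e-07). Aldh1a1, a retinaldehyde dehydrogenase, read 10.6, 9.67 and 11.1 in the CLP arrays, against 884, 1019.8 and 905 in the preCFUE arrays (-5.17 ± 0.16, adjusted p = 2.6e-11). None of these overlapped between fractions. Ces2g, a carboxylesterase, fell by 5.71, Blvrb, the biliverdin reductase of red cells, by 4.50, Pklr, the red cell and liver pyruvate kinase, by 3.57, and Gclm, a glutathione synthesis subunit, by 3.14. Bpgm, which makes the haemoglobin effector bisphosphoglycerate, was at -0.71 ± 0.32 (adjusted p = 0.114) and passed as lower without CLP replicate 2 (-0.96, adjusted p = 0.0384).

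Receptors for growth factors of the myeloid and erythroid lineages changed both ways, with 10 of 15 higher in CLP and 3 lower. Epor, the erythropoietin receptor, read 29.1, 29.9 and 21.9 in the CLP arrays, against 270.4, 220.3 and 201 in the preCFUE arrays (-2.52 ± 0.22, adjusted p = 8.32e-07). Csf1r, the receptor of the macrophage growth factor, read 476, 337 and 526 in the CLP arrays, against 44.4, 39.99 and 29.8 in the preCFUE arrays (3.08 ± 0.29, adjusted p = 2.11e-06). The arrays were apart in opposite directions. Il6st, the shared gp130 chain, rose by 3.03 ± 0.38 (adjusted p = 3.5e-05) and Il18r1 by 2.56 ± 0.20 (adjusted p = 2.5e-07), and Ifngr1, an interferon-gamma receptor chain, fell by 1.99. Csf2ra was at 0.063 ± 0.16 (adjusted p = 0.807).

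Of 9 genes downstream of the erythropoietin receptor, 3 were lower in CLP and 4 higher, and of 16 lymphoid cytokine signalling genes, which share 6 of them, 8 were higher and 2 lower (9 higher and 2 lower without CLP replicate 2). Jak2, which the erythropoietin receptor uses, was lower at -1.19 ± 0.12 (adjusted p = 2.92e-06). Stat5a (-1.32 ± 0.19, adjusted p = 0.000105) and Stat5b (-0.61 ± 0.17, adjusted p = 0.0162), which the erythropoietin and interleukin-7 receptors both activate, were lower too. Stat5b missed the test without CLP replicate 3 (-0.51, adjusted p = 0.075) or preCFUE replicate 1 (-0.53, adjusted p = 0.0739). The STAT5-inducible inhibitors Cish (1.58 ± 0.12, adjusted p = 3.05e-07), Socs2 (1.33 ± 0.17, adjusted p = 5.22e-05) and Socs3 (2.07 ± 0.24, adjusted p = 2.02e-05) and the kinase gene Pim1 (2.67 ± 0.19, adjusted p = 1.1e-07) were higher in CLP. For Socs2, 2 of 6 probe sets passed as higher in a fit of every probe set, and none as lower. Pim1 read 901, 589.5 and 769.7 in the CLP arrays, against 83.8, 92.4 and 141 in the preCFUE arrays, and its arrays did not overlap. Jak1 and Jak3, the kinases of the interleukin-7 receptor, were at -0.021 ± 0.34 (adjusted p = 0.973) and 0.0056 ± 0.19 (adjusted p = 0.988). Crlf2, the receptor chain that pairs with Il7r to bind TSLP, rose by 1.00 ± 0.15 (adjusted p = 0.000193).

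Genes of sphingosine-1-phosphate, a lipid that red cells release into plasma and that lymphocytes follow through their receptors, changed both ways. Sphk1, the kinase that makes the lipid, read 9.29, 13.1 and 10.01 in the CLP arrays, against 744, 648 and 683 in the preCFUE arrays (-4.72 ± 0.15, adjusted p = 3.59e-11). Mfsd2b, its exporter in red cells and platelets, read 10.5, 7.68 and 7.63 in the CLP arrays, against 521, 555 and 467 in the preCFUE arrays (-4.43 ± 0.15, adjusted p = 6.26e-11). Both were under 16 in every CLP array. Sgpp1, a phosphatase that degrades it, fell by 2.61, and among receptors S1pr3 rose by 3.08 ± 0.13 (adjusted p = 4.68e-10) and S1pr4 fell by 1.201, with S1pr1 at 0.20 and S1pr2 at -0.16 ± 0.23 (adjusted p = 0.658). In all, 4 of 11 were lower and 2, Spns2 and S1pr3, higher.

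Promoters were searched for short motifs of the factors above, on both strands, from 250 bases before to 50 after the first RefSeq start (GRCm38.p6). The motifs were AGATAA for GATA factors, CCACNCCC for Krüppel-like factors, GAGGAAGT for PU.1 and CAGGTG for E proteins, and no matches overlap in the 4 promoters shown. Of 272 genes at least 4-fold higher in CLP, 209 had a promoter in the table, and of 343 at least 4-fold lower, 283. Krüppel motifs stood in 22.5% of the higher set, 29.7% of the lower set and 21.9% of all 13833 autosomal promoters. In the same order of sets, PU.1 motifs stood in 6.22%, 2.12% and 2.9%, GATA motifs in 7.66%, 7.77% and 7.98%, and E protein motifs in 17.7%, 16.3% and 19.8%. These are descriptions with no test, and a match is not a binding site. The promoters below illustrate the motifs at genes described above, 2 higher in CLP (Cd53, with a PU.1 and a Krüppel motif, and Rag1, with an E protein motif) and 2 lower (Epor, with a GATA and a Krüppel motif, and Tfr2, with 2 Krüppel motifs), 5′ to 3′ on the gene's strand, with motifs in capitals. Cd53 lies at chr3:106790100-106790399 on the minus strand, Rag1 at chr2:101649483-101649782 on the minus strand, Epor at chr9:21963527-21963826 on the minus strand and Tfr2 at chr5:137569590-137569889 on the plus strand, the first of its 3 listed starts.
Cd53: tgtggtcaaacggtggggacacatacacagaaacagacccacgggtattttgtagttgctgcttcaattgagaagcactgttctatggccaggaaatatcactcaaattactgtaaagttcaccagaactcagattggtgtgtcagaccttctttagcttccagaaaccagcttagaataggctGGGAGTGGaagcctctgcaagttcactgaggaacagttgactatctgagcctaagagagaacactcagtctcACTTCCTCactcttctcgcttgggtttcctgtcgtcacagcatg
Rag1: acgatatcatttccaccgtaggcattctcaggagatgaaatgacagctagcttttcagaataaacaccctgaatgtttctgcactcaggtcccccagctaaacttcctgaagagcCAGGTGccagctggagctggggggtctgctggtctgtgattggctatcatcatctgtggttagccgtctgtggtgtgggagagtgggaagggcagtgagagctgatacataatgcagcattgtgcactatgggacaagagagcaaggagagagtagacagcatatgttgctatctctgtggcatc
Epor: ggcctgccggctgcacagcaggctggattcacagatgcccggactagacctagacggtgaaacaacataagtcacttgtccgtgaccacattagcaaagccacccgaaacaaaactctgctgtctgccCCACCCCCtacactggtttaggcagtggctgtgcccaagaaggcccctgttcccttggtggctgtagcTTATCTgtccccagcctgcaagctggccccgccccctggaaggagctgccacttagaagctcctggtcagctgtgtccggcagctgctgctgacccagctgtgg
Tfr2: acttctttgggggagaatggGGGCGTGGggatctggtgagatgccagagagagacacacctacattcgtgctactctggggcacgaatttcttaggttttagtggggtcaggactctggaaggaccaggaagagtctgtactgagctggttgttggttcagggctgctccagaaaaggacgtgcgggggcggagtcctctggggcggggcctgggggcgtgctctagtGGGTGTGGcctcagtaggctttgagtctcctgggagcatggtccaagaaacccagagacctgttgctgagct

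Granulocyte and monocyte genes, early markers of a fate that neither gate selects, were higher in CLP for 12 of 23 members and lower for none. Mpo, the myeloperoxidase of primary granules, read 737, 837 and 723 in the CLP arrays, against 16.3, 19.8 and 66.6 in the preCFUE arrays (4.09 ± 0.46, adjusted p = 1.21e-05). Emb, embigin, rose by 3.93 ± 0.27 (adjusted p = 8.29e-08) and Ly86, a toll-like receptor partner, by 2.89 ± 0.20 (adjusted p = 7.1e-08). Elane (-0.15 ± 0.26, adjusted p = 0.721) and Prtn3 (-0.82 ± 0.30, adjusted p = 0.0564), other primary granule proteases, did not pass. Prtn3 passed as lower without preCFUE replicate 2 (-1.05, adjusted p = 0.0264). The stem and multipotent list was higher for 10 of 21 (11 higher and 1 lower without CLP replicate 2), among them Cd34 (4.12 ± 0.30, adjusted p = 1.47e-07), Erg (3.68 ± 0.25, adjusted p = 6.04e-08), Mycn (2.63 ± 0.30, adjusted p = 1.24e-05), Meis1 (2.17), Hoxa9 (2.23) and the chromatin organizer Satb1 (5.85 ± 0.24, adjusted p = 4.66e-10), while Mllt3, a stem cell regulator, fell by 1.72. Satb1 read 1749.5, 2651 and 1655 in the CLP arrays, against 19.1, 12.2 and 25.1 in the preCFUE arrays, with every CLP array above every preCFUE array. Of 23 megakaryocyte genes, 2 were higher, 3 lower and 18 did not pass, not far from the 9.69% higher and 19.5% lower among all genes. Without CLP replicate 2, 3 were higher and 4 lower. With all arrays, F2r, the thrombin receptor, fell by 2.35 ± 0.21 (adjusted p = 1.23e-06), Gp5 by 1.73 and Vwf by 1.37, and Slc35d3 (2.99 ± 0.25, adjusted p = 4.74e-07) and Plek (2.49 ± 0.36, adjusted p = 0.000131) rose. Pf4, platelet factor 4, was at -0.47 ± 0.18 (adjusted p = 0.0659), and passed as lower without CLP replicate 2 (-0.71, adjusted p = 0.00174).

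All 19 measured G2 and M phase genes passed as lower, with a median of -1.48 against 0.015 for all genes and -0.24 for those above the 40th percentile. Over the alternative settings between 12 and 19 of them passed as lower and none as higher. Bub1, a spindle checkpoint kinase, read 22.2, 80.2 and 22.2 in the CLP arrays, against 307, 291 and 289 in the preCFUE arrays (-2.58 ± 0.37, adjusted p = 0.000122). Ccnb2, cyclin B2, read 57.9, 138 and 68.4 in the CLP arrays, against 578, 463 and 456 in the preCFUE arrays (-2.38 ± 0.33, adjusted p = 9.08e-05). Ube2c, a mitotic ubiquitin-conjugating enzyme, read 62.7, 85.2 and 54.2 in the CLP arrays, against 311, 288 and 351 in the preCFUE arrays (-2.01 ± 0.20, adjusted p = 4.71e-06). CLP arrays were below preCFUE arrays in these genes. Cdk1 fell by 1.90, Aurkb by 1.92 and Mki67 by 1.23. S phase genes were less uniform, with 11 of 21 lower and none higher. Leaving out CLP replicate 1, CLP replicate 3 or preCFUE replicate 3 gave 7, 7 and 7 lower, and leaving out CLP replicate 2 gave 15. Over the alternatives the lower count ran from 1 to 15, the lowest with the replicate number as a block. Cdc6, which loads the replicative helicase, fell by 2.57 ± 0.46 (adjusted p = 0.000686) and Ccne1, cyclin E1, by 2.02 ± 0.26 (adjusted p = 3.73e-05). Mcm7, a helicase subunit, was at -0.42 ± 0.15 (adjusted p = 0.0534), and passed as lower without CLP replicate 2 (-0.53, adjusted p = 0.0235).

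**Figure D4:**
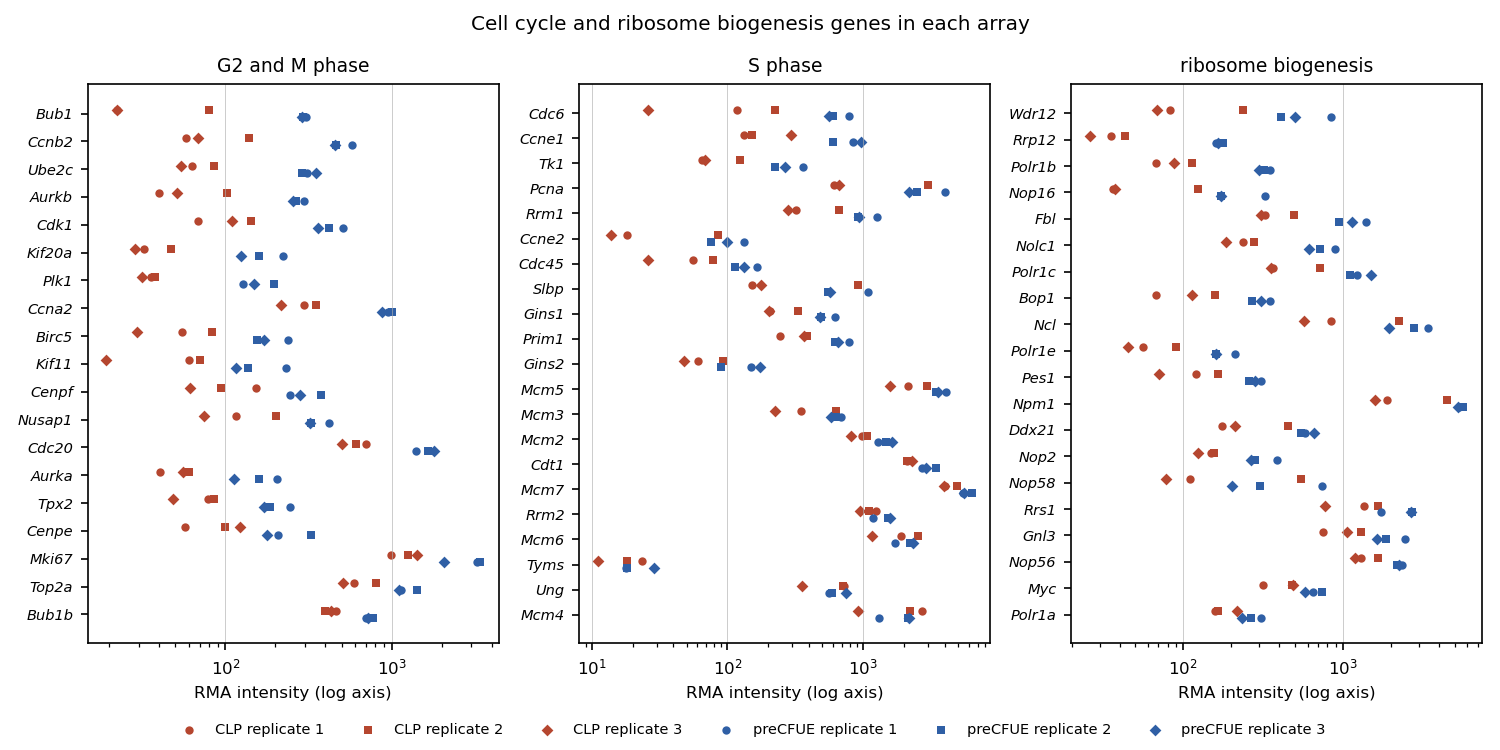
RMA intensity on a log axis of every measured member of the G2 and M phase, S phase and ribosome biogenesis lists, CLP arrays in red above preCFUE arrays in blue, with a marker shape per replicate number. CLP replicate 2 (square) is the highest CLP array for 14 of 19, 15 of 21 and 18 of 20 genes, and its summed intensity over each list lies nearest to preCFUE.

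Ribosome biogenesis genes were lower for 17 of 20 members, with none higher and a median of -1.26. Wdr12 (-2.16 ± 0.44, adjusted p = 0.00169), Rrp12 (-1.87 ± 0.24, adjusted p = 4.08e-05) and Polr1b (-1.71 ± 0.27, adjusted p = 0.000225), factors of pre-ribosome assembly and an RNA polymerase I subunit, were among the lowest. Wdr12 read 83.1, 237 and 68.4 in the CLP arrays, against 839.5, 412 and 503 in the preCFUE arrays. The nucleolar proteins Ncl, Npm1 and Fbl fell by 1.36, 1.19 and 1.60, and Myc, which activates these genes, was at -0.62 ± 0.27 (adjusted p = 0.102). Ncl missed the test without any single array but CLP replicate 2 or preCFUE replicate 3 (adjusted p of 0.091 to 0.189). CLP replicate 2 lay closest to preCFUE, as its summed intensity over the list was 15525.5 against 8415.3 and 7591 in the other CLP arrays and 20821 to 24033 in preCFUE. The count was 18 without it, and 17 with the 3-prime to 5-prime ratio as a covariate, 19 for the G2 and M phase genes. Over the alternatives it ran from 4 to 18, the lowest with the replicate number as a block.

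Among genes that control G1, Cdkn1a, the cyclin-dependent kinase inhibitor p21, read 231, 313 and 236 in the CLP arrays, against 37.9, 29.2 and 35.04 in the preCFUE arrays (2.46 ± 0.13, adjusted p = 3.79e-09). Ccnd2, cyclin D2, rose by 1.22 ± 0.30 (adjusted p = 0.00656) and Btg2, an antiproliferative gene, by 1.13 ± 0.19 (adjusted p = 0.000425), while Rb1 fell by 1.84 ± 0.31 (adjusted p = 0.000449). In all, 4 of 18 were higher and 2 lower. The lower count was 7 without CLP replicate 2, 5 without preCFUE replicate 2, and 4 with median centring. It was 1 without CLP replicate 1, CLP replicate 3, preCFUE replicate 1 or preCFUE replicate 3. Cdk6 was at 0.50 ± 0.22 (adjusted p = 0.113). In the BCL2 family, 4 of 13 were higher and 1 lower, and 3 were lower with median centring (5 higher and 1 lower without CLP replicate 2). Bcl2, the survival gene of lymphoid cells, read 670.1, 997 and 561 in the CLP arrays, against 144, 111 and 149.8 in the preCFUE arrays (2.30 ± 0.22, adjusted p = 2.15e-06), and Bcl2l1, which erythroid cells rely on later, was at 0.31 ± 0.16 (adjusted p = 0.167). Mcl1 rose by 0.82 ± 0.088 (adjusted p = 7.9e-06) on its brightest probe set, but another of its probe sets was lower and the mean over probe sets did not pass. Bcl2l11, the proapoptotic BIM gene, rose by 0.96 ± 0.25 (adjusted p = 0.01). Bid was at -1.42 ± 0.47 (adjusted p = 0.0347) and missed the test without any single array of the comparison but CLP replicate 2 (adjusted p of 0.0517 to 0.155).

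Mt1, a metallothionein that binds zinc and copper, read 16.2, 18.5 and 31.6 in the CLP arrays, against 1521, 2052 and 2145 in the preCFUE arrays, a log2 fold change of -5.66 ± 0.16 (adjusted p = 1.53e-11). Mt2, its close relative, read 22.9, 32.3 and 31.5 in the CLP arrays, against 1389, 1757 and 1682 in the preCFUE arrays (-5.18 ± 0.15, adjusted p = 1.61e-11). Both were lower in every CLP array than in any preCFUE array. Of 10 metallothionein and zinc genes, 4 were lower and 2 higher (2 higher and 5 lower without CLP replicate 2). The zinc transporters Slc30a4 (1.98 ± 0.21, adjusted p = 8.56e-06) and Slc39a6 (1.92 ± 0.44, adjusted p = 0.00446) rose. In the amino acid response list, 7 of 17 were lower and 1, Trib3 (0.68 ± 0.18, adjusted p = 0.0112), a pseudokinase gene, higher (2 higher and 8 lower without CLP replicate 2). Trib3 missed the test without CLP replicate 1 (0.47, adjusted p = 0.0564) or preCFUE replicate 1 (0.58, adjusted p = 0.058), and none of the list was then higher. Asns, asparagine synthetase, read 60.6, 52.9 and 54.97 in the CLP arrays, against 1235, 855 and 967 in the preCFUE arrays (-3.83 ± 0.23, adjusted p = 1.6e-08). Aldh18a1, for proline synthesis, fell by 1.86 ± 0.21 (adjusted p = 1.2e-05), and the amino acid transporter chains Slc7a5 and Slc3a2 by 1.81 and 1.56. Atf4, which activates these genes, was at 0.15 ± 0.21 (adjusted p = 0.645), and Phgdh, for serine synthesis, at 0.33 ± 0.13 (adjusted p = 0.0734), passing as higher without CLP replicate 3 (0.46, adjusted p = 0.0195). Cholesterol synthesis was lower for 4 of 15, near the 19.5% of all genes that were lower (1 higher and 4 lower without CLP replicate 2, and 1 higher without preCFUE replicate 3). Sqle was at -1.74 ± 0.28 (adjusted p = 0.000341), Idi1 at -1.36 ± 0.30 (adjusted p = 0.00292), Lss at -0.99 ± 0.14 (adjusted p = 9.82e-05) and Stard4, a sterol carrier, at -1.21 ± 0.31 (adjusted p = 0.0091). Stard4 missed the test without CLP replicate 3 (-0.96, adjusted p = 0.0506), and Hmgcs1 was at 0.070 ± 0.16 (adjusted p = 0.789).

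Immediate-early genes, which cells switch on quickly after a stimulus, were higher in CLP for 8 of 17 members (11 higher and 0 lower without CLP replicate 2). Fos read 878, 496 and 2373 in the CLP arrays, against 22.5, 36.8 and 18.2 in the preCFUE arrays (4.65 ± 0.44, adjusted p = 2.27e-06). Zfp36, an RNA-decay factor, rose by 2.38 ± 0.26 (adjusted p = 1.04e-05), Jund by 1.58 ± 0.18 (adjusted p = 1.57e-05) and Dusp1, a MAP kinase phosphatase, by 1.35 ± 0.27 (adjusted p = 0.00146). CLP replicate 3 was the highest CLP array for 11 of 17. Egr1 was at 0.97 ± 0.39 (adjusted p = 0.077) and passed as higher without CLP replicate 2 (1.57, adjusted p = 0.00037). Of 18 interferon response genes, 2 were higher, 3 lower and 13 did not pass, near the 9.69% higher and 19.5% lower among all genes. Ifih1, an RNA sensor, fell by 2.89 ± 0.29 (adjusted p = 4.4e-06), Ifi35 by 0.99 ± 0.19 (adjusted p = 0.00114) and Ifit1 by 0.77 ± 0.22 (adjusted p = 0.0182), and Irf1 rose by 1.08 ± 0.15 (adjusted p = 0.000104). Ifit1 missed the test without CLP replicate 3 (-0.63, adjusted p = 0.0857) or preCFUE replicate 1 (-0.68, adjusted p = 0.078), and 5 members were lower without CLP replicate 2. The higher count was 2, and 1 without CLP replicate 3 or preCFUE replicate 1.

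Several of the largest changes fell outside these lists. Bex6 rose by 5.53 ± 0.34 (adjusted p = 2.27e-08). Tnfaip2, a TNF-inducible gene, fell by 6.05 ± 0.16 (adjusted p = 1.09e-11) and C1qtnf12, a secreted C1q-like protein, by 5.64 ± 0.23 (adjusted p = 3.9e-10). Gja1, the gap junction protein connexin 43, read 7.54, 15.4 and 11.9 in the CLP arrays, against 1001, 1191 and 1325 in the preCFUE arrays (-5.43 ± 0.20, adjusted p = 1.85e-10), and Myh10, a non-muscle myosin heavy chain, 16.2, 17.03 and 23.6 in the CLP arrays, against 1165, 1733 and 1148 in the preCFUE arrays (-5.27 ± 0.24, adjusted p = 1.15e-09). No array of one fraction overlapped the other for them.

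Few markers of other cell types passed the test, most of them among T and NK cell and dendritic cell genes. The summed intensity of 12 T and NK genes was 296 to 321 over the CLP arrays and 156 to 182 over the preCFUE arrays, with 3 higher in CLP, among them Klrd1, an NK receptor (1.86 ± 0.16, adjusted p = 1.06e-06), and Cd8a (0.53 ± 0.19, adjusted p = 0.0441), while Cd8b1, Cd5, Gzmb and Ifng averaged under 16 in both. Only 1 passed without CLP replicate 3, 1 without preCFUE replicate 1 and 1 without preCFUE replicate 2, and Cd8a missed the test without any single array but CLP replicate 2. There were 4 higher and 0 lower without CLP replicate 2. The 9 dendritic cell genes summed to 447 to 843 in CLP, highest in replicate 3, and 232 to 247 in preCFUE, with 3 higher and 1 lower. Cox6a2, a plasmacytoid dendritic cell gene, rose by 2.48 ± 0.29 (adjusted p = 2.04e-05), Itgax by 1.02 and Siglech by 0.45. Siglech missed the test without any single array but CLP replicate 2 or preCFUE replicate 2 (adjusted p of 0.052 to 0.107). Bst2 fell by 0.67 ± 0.20 (adjusted p = 0.0226), missing the test without CLP replicate 1, preCFUE replicate 1 or preCFUE replicate 3 (adjusted p of 0.0848 to 0.115), while Xcr1, Cd209a and Batf3 were under 16. Mature B and plasma cell genes summed to 513 to 1471 in CLP and 609 to 843 in preCFUE, with 2 of 9 higher, chiefly Sdc1, syndecan 1 (3.35 ± 0.24, adjusted p = 9.06e-08), and Ms4a1, Cr2, Fcer2a, Jchain and Prdm1 under 16. Fcer2a, the other one that was higher, missed the test without CLP replicate 2, preCFUE replicate 1 or preCFUE replicate 2 (adjusted p of 0.0546 to 0.0733). Neutrophil genes summed to 139 to 292 in CLP and 273 to 483 in preCFUE, and macrophage genes to 155 to 201 in CLP and 132 to 145 in preCFUE. No member of the neutrophil list passed, with all arrays or without any one of them. Fitting only the 6 arrays with the replicate number as a block made 1 lower. Ngp and S100a8, the brightest, were lower in every CLP array than in any preCFUE array. Their log2 fold changes were -1.20 ± 1.00 (adjusted p = 0.413) and -1.18 ± 1.00 (adjusted p = 0.422). The shared spread takes in other fractions, and Ngp averaged 332 ± 284 in preGM and 385 ± 420 in MkP (SD, n = 3 each). No macrophage gene passed with all arrays, and 2 were higher without CLP replicate 2, Marco (0.26, adjusted p = 0.0216) and Spic (0.46, adjusted p = 0.0132), 1 without CLP replicate 1 and 1 without CLP replicate 3. Of the mast cell and basophil, eosinophil and endothelium and stroma lists, 1 (Cpa3, -0.49 ± 0.17, adjusted p = 0.0473, which missed the test without any single array), 0 and 1 (Col1a2, -0.89 ± 0.15, adjusted p = 0.000431) passed as lower and none as higher. Without CLP replicate 2, the mast cell and basophil gene Hdc (0.73, adjusted p = 0.0156) and the eosinophil gene Epx (0.34, adjusted p = 0.0488) passed as higher. The sums of these lists were 155 to 218 in CLP and 146 to 158 in preCFUE for mast cells and basophils, 56.8 to 75.5 in CLP and 70.8 to 92.1 in preCFUE for eosinophils, and 178 to 212 in CLP and 186 to 219 in preCFUE for endothelium and stroma. The part of other cells in the lists above was not tested.

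Among the 5 fractions, CLP and preCFUE often marked the ends of the range. Of the 1687 genes higher in CLP, CLP had the highest mean of the fractions in 67.3%, against 28.6% of all genes, and preCFUE the lowest in 64.3%, against 19.2%. Of the 3397 lower genes, CLP had the lowest mean in 82.9% and preCFUE the highest in 77.3%, against 27.9% and 24.3% of all genes. These shares are descriptions, since the same arrays chose the genes. Lymphoid genes differed in where else they were high. Il7r averaged 1752 ± 553 in CLP, 60.5 ± 39.2 in preGM and at most 14.1 ± 2.52 in the remaining fractions (SD, n = 3 each), and Rag1 and Ebf1 were likewise near the floor outside CLP. Flt3, Dntt and Notch1 also had preGM levels, Flt3 1090.1 ± 50.5, Dntt 1866 ± 615 and Notch1 1101 ± 346 (SD, n = 3). Some lymphoid factors had a higher mean outside CLP. Irf8 averaged 1162 ± 472 in CLP and 1509 ± 238 in preGM, and Sox4 1670 ± 584 in CLP and 1739 ± 383 in preGM. Mef2c averaged 1408 ± 313 in CLP and 1662 ± 311 in MkP (SD, n = 3 each). Cd34 averaged 544 ± 346 in CLP and 1878 ± 410.3 in preGM (SD, n = 3 each). Bcl2 averaged 743 ± 227 in CLP, 1412 ± 51.1 in preGM and 846 ± 131 in MkP (SD, n = 3 each). Coro1a, Lcp1, S1pr3 and Mpo also had higher means in preGM than in CLP, with Mpo at 7503 ± 923 in preGM and 766 ± 62.4 in CLP (SD, n = 3 each). On the erythroid side Klf1, Epor, Car1 and Tfr2 also had higher means in preMegE than in CLP, with Car1 at 4757 ± 778 (SD, n = 5) against 8109.5 ± 368 in preCFUE (SD, n = 3), whereas Sphk1 and Asns were high in preCFUE alone of the 5, at 692 ± 48.5 and 1019 ± 195 (SD, n = 3). The next highest means were 20.7 ± 4.05 in preMegE (SD, n = 5) for Sphk1 and 157 ± 62.2 in MkP (SD, n = 3) for Asns. Differences that involve the other fractions were not tested.

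**Figure D5:**
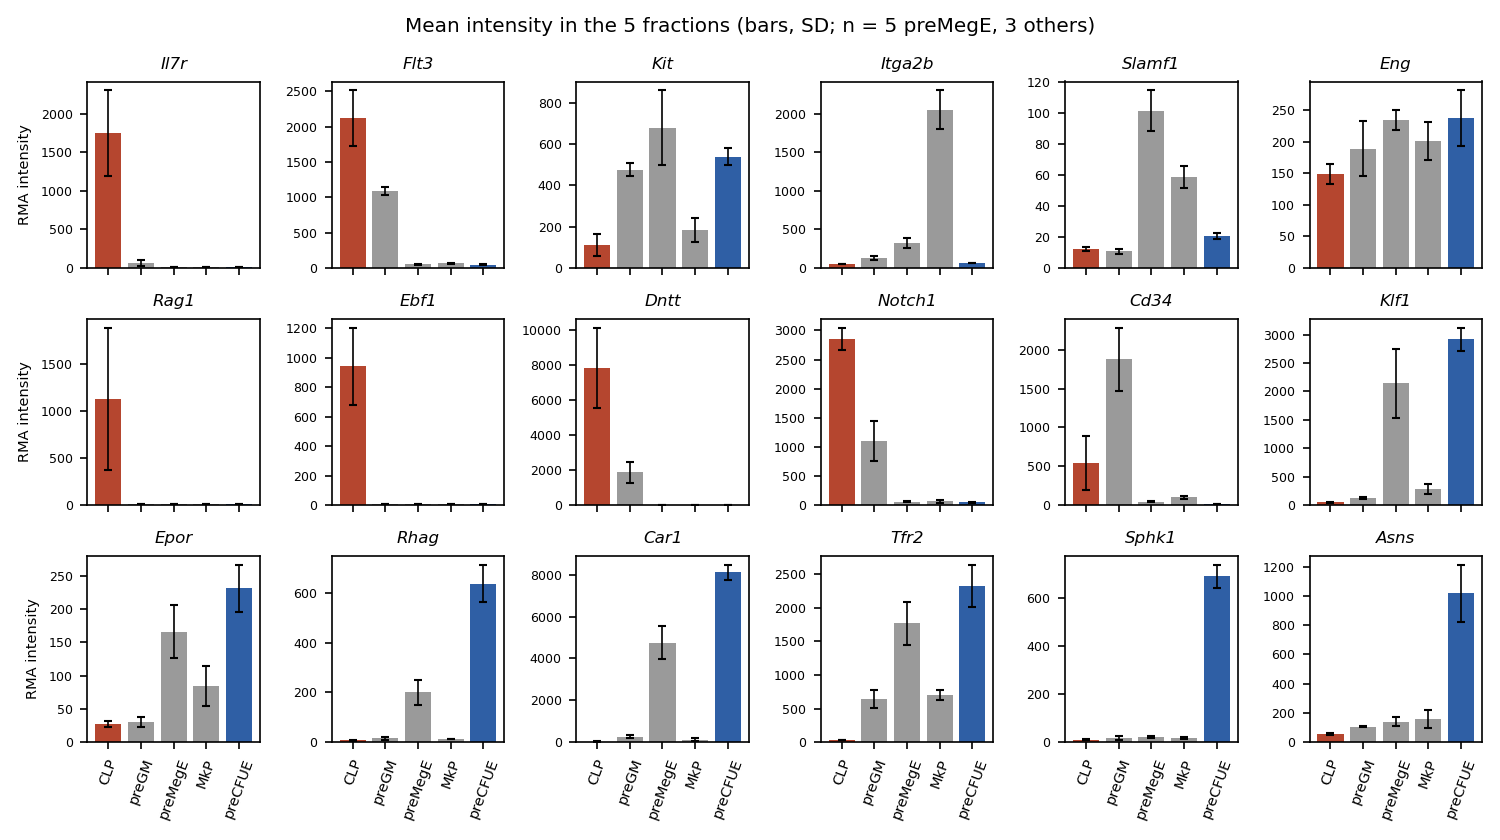
Mean RMA intensity, from 0, with SD bars in CLP (red), preGM, preMegE and MkP (grey) and preCFUE (blue) for 18 genes, n = 5 arrays in preMegE and 3 in the others. Il7r, Rag1 and Ebf1 stand out in CLP, Sphk1 and Asns in preCFUE, and Itga2b peaks in MkP at 2058 ± 249.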

How the data were processed

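Total RNA from sorted cells was amplified by the Affymetrix small-sample protocol, hybridized to 3-prime expression arrays and scaled to a median of 100, and probe set values were extracted with RMA, per the labels' design text, which also names a filter on SD over mean in dChip. The deposited values are intensities on a linear scale, by the authors, for 45101 probe sets and 17 arrays. They run from 4.33 to 24739. Their median per array ran from 15.96 in preCFUE replicate 1 to 19.07 in CLP replicate 3, not the 100 that the design text names. Neither the genome build nor the RMA version is given in the sources used here. Repeated rounds of amplification favour 3-prime ends and can lower the values of long or degraded transcripts, and arrays give no read depth, so their number limits the precision.

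Here, log2(intensity + 16) was taken of the deposited intensity. Of 45101 probe sets, 34945 had 1 gene symbol in the platform annotation, 932 had several and were not named, and 64 were controls. Of the former, 34741 were found in RefSeq by gene identifier and no symbol changed. They make 18193 genes, 9010 with several probe sets, each read from the probe set of highest mean, and 17404 are autosomal, 626 lie on X or Y and 163 have no chromosome in the table. limma 3.58.1 in R 4.3.3 fitted all 17 arrays with a term per fraction (12 residual and 2.01 prior degrees of freedom), the contrast CLP minus preCFUE, and Benjamini-Hochberg adjustment over all 18193 genes. The fit was tested on simulated data. A value after ± is the SE of a log2 fold change, or an SD where marked. Figures used matplotlib 3.10.9 in Python 3.11.15. The gene lists (38, with 8 of other cell types) and members were chosen with earlier results of these data known. Genes were named by rule: the sort genes, the 10 largest changes in each direction past the test without overlap, from each list the 4 largest past it and the brightest 1 not past it, and the 2 brightest of each marker list. Other list members named were chosen after their values were seen. Motif counts used RefSeq promoters. The 19 alternatives covered the constant added, filters, scaling, probe sets, arrays left out, weights, the RNA control ratio, a trend, a replicate block and autosomal genes alone.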

Additional observations from a re-analysis of the deposited data

Results flagged for a closer look

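Klf1 in preMegE replicate 3, at an RMA intensity of 3200.3, lay far from the other preMegE arrays, which ran from 1722 with a median of 1840.4 over all 5. The gap to its nearest neighbour was 0.725 of the whole range, above Dixon's 95% critical value of 0.710 for 5 arrays. It was the 1 gene so marked among the 18 whose levels are given in all fractions, and chance marks about 1 in 20 groups. The preMegE arrays enter the CLP and preCFUE comparison only through the shared spread. The fractions of 3 arrays were not examined in this way.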

How the results depend on the processing

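Of the 163 genes chosen by rule, 123 passed the test, none of them changed sign under any of the 19 alternatives and 97 stayed past it under every alternative that gave them a value. The counts of genes higher and lower in CLP, 1687 and 3397, stayed within 1.5-fold under most alternatives. They were 791 and 799 among genes with SD over mean above 0.5, where fewer genes were tested. Fitting only the 6 arrays gave 1081 higher and 2307 lower, with fewer arrays behind the spread. With the replicate number as a block in those 6 arrays they were 587 and 904. Deviations from the fraction mean correlated at -0.358, -0.464 and 0.0484 between same-numbered arrays. The largest correlation was 0.507, between CLP replicate 2 and preCFUE replicate 1. With 3 arrays in each fraction, these values cannot settle whether the numbers pair the arrays. Leaving out 1 array gave 1251 to 2361 higher and 2568 to 4061 lower. Scaling shifted the median of all genes to 0.0060 (quantile) and -0.053 (median centring), against 0.015, and the share of calls that were higher to 42.6% and 24.2%, against 33.2%. The median of the erythroid and megakaryocyte factors and that of the metallothionein and zinc genes turned sign in 1 setting each, as did medians near 0 of 5 other lists, the globin, megakaryocyte, mast cell, eosinophil and endothelial genes, in 1 or more. Among genes not past the test, these log2 fold changes turned sign, and the cause was not tested. With quantile normalization these were Jak1 0.42, Cd24a 0.0079, Myb 0.14, Fth1 0.088, S1pr2 0.035, Txnip 0.19, Slc39a10 0.29, Xbp1 0.14 and Cma1 -0.050. With median centring these were Notch2 -0.13, Csf2ra -0.041, Hmgcs1 -0.082 and Cma1 -0.084. With the mean over probe sets these were Jak1 0.20 and Hmgcs1 -0.093. With array weights it was Notch2 -0.068. With the 3-prime to 5-prime ratio as a covariate these were Jak1 0.29, Notch2 -0.0052, Slc39a10 0.14 and Cma1 -0.020. With each array left out in turn, log2 fold changes that turned sign ranged as follows, Jak1 -0.24 to 0.30, Notch2 -0.18 to 0.19, H2-Oa -0.0028 to 0.23, S1pr2 -0.43 to 0.028, Csf2ra -0.059 to 0.15, Slc39a10 -0.61 to 0.15, Hmgcs1 -0.055 to 0.18, Xbp1 -0.79 to 0.23, Vcam1 -0.18 to 0.033 and Cma1 -0.085 to 0.077. Adding 16 damps differences among low values: 47.3% of all values were under 16, and 4911 genes had both means there.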
